A study of Homo sapiens with 9 samples.

Results

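Small RNA libraries of HCT116, a human colorectal carcinoma cell line, and of 2 drug-resistant sublines were compared by replicate number: the 3 libraries numbered replicate 3, of 9 in all, against the 6 libraries numbered replicates 1 and 2. Each line gave 3 libraries, labelled as biological replicates 1, 2 and 3. The parental HCT116 cells had not been selected with either drug, HCT-FU-c was selected under rising doses of 5-fluorouracil (5-FU), and HCT-Oxa-c was selected the same way under oxaliplatin. The cells of all 3 lines were grown with fetal bovine serum, and 1 subline per drug stood for its kind of resistance. This division of the libraries was chosen on the deposited counts, because the replicate 3 libraries had been seen to differ together, so the differences between replicate 3 and the others are a description and carry no test. Tests were kept to replicate 2 against replicate 1, to one line against another, and to whether the replicate 3 difference was unequal between lines, the last of which uses the same libraries as the choice.

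A miRNA gene is transcribed into a hairpin precursor, which Drosha and Dicer cut into a short duplex. The strand from the 5′ side of the hairpin is named 5p and that from the 3′ side 3p. One strand is loaded into an Argonaute protein and finds its targets mainly through its seed, bases 2 to 8 from the 5′ end, so miRNAs with one seed form a family. Both strands of a duplex, and hairpins cut from one primary transcript, begin from the same RNA. A pair of arms or a cluster therefore offers a comparison within a library that does not depend on how the library was scaled.

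Levels are given in CPM, counts scaled to a common library total, with the totals adjusted by the trimmed mean of M values (TMM). Of 1198 listed miRNAs, 367 had enough counts to be compared. The other 831 together held at most 0.0998% of the counts of any library. A replicate 3 difference is the log2 level of replicate 3 minus that of replicates 1 and 2 of the same line, over the 3 lines, given with its standard error from edgeR.

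The sequences below are those of the miRNAs with the largest replicate 3 differences in the direction shared by all 3 lines, among those with a mean level of at least 100 CPM. They are mature sequences from RefSeq (GRCh38.p14), written 5′ to 3′, with the seed in capitals. Of 12 rises and 12 decreases, 11 and 8 had an entry, and these 19 miRNAs had 19 different seeds. The miRNAs higher in replicate 3 came first.
miR-203b-3p: uUGAACUGuuaagaaccacugga
miR-10a-5p: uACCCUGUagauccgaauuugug
miR-625-3p: gACUAUAGaacuuucccccuca
miR-30e-3p: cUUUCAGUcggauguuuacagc
miR-28-3p: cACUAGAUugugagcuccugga
miR-182-5p: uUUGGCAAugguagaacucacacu
miR-143-3p: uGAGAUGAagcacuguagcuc
miR-27b-5p: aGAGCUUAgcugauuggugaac
let-7f-5p: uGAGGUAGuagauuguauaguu
miR-196b-5p: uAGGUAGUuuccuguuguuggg
miR-375-3p: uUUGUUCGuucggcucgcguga
The miRNAs lower in replicate 3 follow. The other 5 of the 24 were miR-10b-5p, which was higher, and miR-374a-5p, miR-425-5p, miR-30b-5p and miR-186-5p, which were lower.
miR-335-5p: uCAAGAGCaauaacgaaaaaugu
miR-22-3p: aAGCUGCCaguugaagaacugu
miR-3613-5p: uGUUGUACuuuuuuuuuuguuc
miR-24-3p: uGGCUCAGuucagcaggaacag
miR-141-3p: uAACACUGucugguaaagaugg
miR-100-3p: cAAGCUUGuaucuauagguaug
miR-29a-3p: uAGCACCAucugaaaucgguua
miR-615-3p: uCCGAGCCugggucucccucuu

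The replicate 3 libraries were the shallowest of each line, with 856383, 919675 and 1088268 counts for HCT116, HCT-FU-c and HCT-Oxa-c, against 1230774 to 2207538 in the other 6. After each library was thinned to the depth of the shallowest, the replicate 3 libraries held at least 1 count of 548 to 632 miRNAs and the others of 605 to 714. The colorectal epithelial markers were present in every library, led by miR-200c-3p and miR-200b-3p. Their summed level was 20411 to 22056 CPM in replicate 3 and 23771 to 26355 CPM in the others. The intestinal miR-215-5p had only 1 to 18 counts. Depth and this summed level thus moved with the replicate number. Singly the markers were mixed: of 8 compared, 1, miR-375-3p, was called higher, 3 lower and 4 neither. miR-200b-3p and miR-200c-3p, which made up most of the sum, were called neither way. The part of depth and of these markers in the differences was not tested. In bulk RNA, fewer cells of a type and less RNA per cell cannot be told apart.

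Within each line, replicates 1 and 2 resembled each other far more than either resembled replicate 3. Over the 367 miRNAs, Pearson's r of the log2 levels was 0.984 to 0.990 between replicates 1 and 2 and 0.922 to 0.945 between replicate 3 and one of them. Replicates 1 and 2 differed at least 2-fold in 4.90% to 9.54% of miRNAs, and replicate 3 differed at least 2-fold from one of them in 32.4% to 42.5%. The median absolute log2 difference was 0.68 for replicate 3 against the others and 0.19 for replicate 2 against replicate 1. For comparison, it was 0.28 between HCT-FU-c and HCT116 and 0.32 between HCT-Oxa-c and HCT116, with replicate 3 given its own term in the model. The spread among libraries of a line, as the biological coefficient of variation of edgeR, was 0.458 with the line alone in the model and 0.181 once replicate 3 had its own term.

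By the adjusted limit of 0.05, 106 miRNAs (28.9% of those compared) were higher in replicate 3 and 80 (21.8%) were lower. These shares stand as the background for the counts of miRNAs that follow and nothing is read from them. The median difference over all miRNAs was 0.02. With scaling by total counts the median moved to -0.23 and the split became 78 higher and 109 lower, and with all 1198 miRNAs in the fit it was 83 higher and 103 lower, so that small differences depend on the scaling. In 115 miRNAs (31.3%) the replicate 3 library lay above both other libraries in each of the 3 lines, and in 98 (26.7%) it lay below both.

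A stricter description asked for at least a 2-fold difference in the same direction in each line. It held for 36 miRNAs above (9.81%) and 26 below (7.08%). Of the 145 miRNAs with a mean of at least 100 CPM, 20 were in the first group and 9 in the second. The limit was met barely by miR-769-5p, whose smallest difference in a line was 1.002, and missed barely by miR-222-5p at 0.997. Among the decreases, miR-362-3p lay just inside with its weakest difference at -1.01, and miR-98-3p just outside at -0.999.

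**Figure D1:**
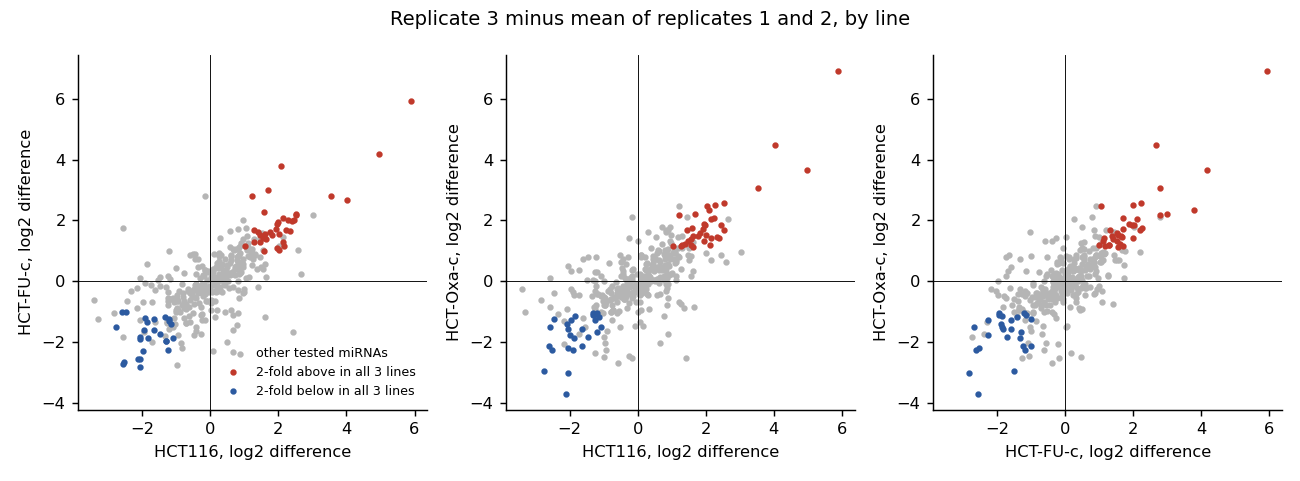
Replicate 3 difference of 367 miRNAs in one line against that in another, in log2 units. Each point is a miRNA, red for the 36 at least 2-fold above in all 3 lines, blue for the 26 at least 2-fold below and grey for the others. The clouds run along the diagonal in all 3 pairs of lines.

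The differences ran alike in the 3 lines, which share no library. Across the 367 miRNAs, Pearson's r between the differences of a pair of lines was 0.738 to 0.764, and the sign was shared by 77.7% to 80.7%. Of 43 miRNAs at least 2-fold higher in replicate 3 of both sublines, 42 were also higher in HCT116, with a median of 1.83. Of 37 that were at least 2-fold lower in both sublines, 33 were lower in HCT116, with a median of -1.32. With HCT-FU-c as the third line, 45 of 45 rises and 32 of 35 decreases kept their direction. With HCT-Oxa-c it was 51 of 53 and 39 of 41. The replicate 3 libraries were grouped because they had been seen to differ together, so this likeness follows the choice and carries no test. The difference between replicates 2 and 1 of a line was only weakly related to the replicate 3 difference of the other lines. Pearson's r was -0.20 for HCT116, -0.29 for HCT-FU-c and 0.05 for HCT-Oxa-c. Replicate 1 lay slightly nearer to replicate 3 than replicate 2 did in HCT-FU-c (r of 0.945 and 0.928) and HCT116 (0.932 and 0.922). This was not so in HCT-Oxa-c (0.938 and 0.941). The points of these correlations share the scaling of their libraries.

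**Figure D2:**
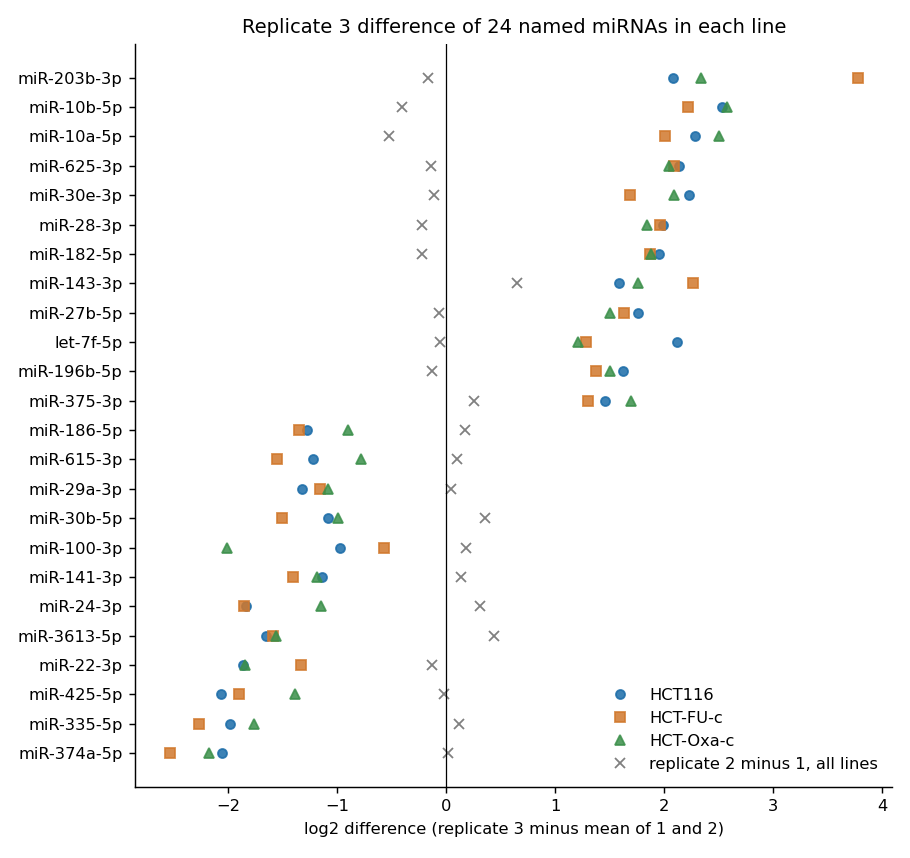
Replicate 3 difference of the 24 miRNAs with the largest rises and decreases, in log2 units. Circles, squares and triangles mark HCT116, HCT-FU-c and HCT-Oxa-c, and crosses the difference between replicates 2 and 1 over the 3 lines. The coloured marks of each miRNA lie on one side of 0, while the crosses lie between -0.53 and 0.65.

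The HOX cluster miRNAs of the miR-10 and miR-196 family led the abundant rises. miR-10a-5p, cut from a hairpin in the first intron of a HOXB3 transcript at chr17:48579838-48579947 (minus strand, GRCh38), stood at 9908, 9098 and 46189 CPM in HCT116 replicates 1, 2 and 3. In HCT-FU-c it stood at 18360, 6911 and 45197 CPM and in HCT-Oxa-c at 7176, 7303 and 41146 CPM. The 3 replicate 3 values were close together and far above the other 6, a difference of 2.22 ± 0.20 (SE). Its relative miR-10b-5p, from chr2:176150303-176150412 (plus strand) in an intron of HOXD3, rose by 2.40 ± 0.19, from 572 to 1479 CPM in the 6 libraries to 4290 to 7794 CPM. miR-196b-5p rose in all 3 lines, from 744 to 1107 CPM to 2329 to 3050 CPM. Of 5 compared members of the family 4 were called higher and none lower, with differences from 0.50 for miR-10a-3p to 2.40. miR-615-3p, which lies in the HOXC region, moved the other way by -1.18 ± 0.19.

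let-7f-5p, a member of the let-7 family of growth-restraining miRNAs, was the most abundant of the named rises. Its levels were 12792, 19153 and 68194 CPM in HCT116, 26530, 19556 and 55336 CPM for HCT-FU-c and 32207, 28536 and 69961 CPM for HCT-Oxa-c. No replicate 3 value overlapped the others, and the difference was 1.54 ± 0.17. Members of the family with almost the same letters moved by different amounts. They are shown here with the seed in capitals.
let-7a-5p: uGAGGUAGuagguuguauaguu
let-7b-5p: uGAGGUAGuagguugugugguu
let-7g-5p: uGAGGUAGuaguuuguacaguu
let-7i-5p: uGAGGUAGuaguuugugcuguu
miR-98-5p: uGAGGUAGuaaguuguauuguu
Counted from the 5′ end, let-7a-5p differs from let-7f-5p by G12A alone, and its difference was 0.78 ± 0.17. From let-7a-5p to let-7b-5p the changes are A17G and A19G, and let-7b-5p stood at -0.49 ± 0.14. From let-7a-5p to let-7g-5p they are G12U and U18C, and let-7g-5p stood at -0.36 ± 0.13. miR-98-5p rose by 1.13 ± 0.16, and let-7i-5p stayed at 0.01 ± 0.13. Of 9 compared members, 5 were called higher and 2 lower. The number of mismatches allowed when reads were assigned is not given in the sources used here, and reads of such close sequences can be divided among them.

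The cluster of miR-183, miR-96 and miR-182, expressed in sensory organs and raised in many carcinomas, was split. Its hairpins lie close together on the minus strand of chromosome 7, with miR-182 at chr7:129770383-129770492, miR-96 at chr7:129774692-129774769 and miR-183 at chr7:129774905-129775014. miR-182-5p stood at 5367, 4476 and 18976 CPM in HCT116, at 5869, 3838 and 17400 CPM in HCT-FU-c and at 6443, 7436 and 25404 CPM in HCT-Oxa-c. It rose by 1.89 ± 0.14 and miR-183-5p by 1.40 ± 0.18. miR-96-5p, cut from the hairpin between them, fell by 1.08 ± 0.16 on the log2 scale, from 535 to 676 CPM in the 6 libraries to 263 to 325 CPM. The 3 guide strands are given for comparison.
miR-182-5p: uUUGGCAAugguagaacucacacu
miR-96-5p: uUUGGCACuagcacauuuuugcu
miR-183-5p: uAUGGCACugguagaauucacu

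Several rises were smaller in level. miR-203b-3p, from chr14:104117418-104117503 (minus strand) and outside annotated host genes, stood at 139, 111 and 529 CPM in HCT116 and at 63.5, 61.7 and 323 CPM in HCT-Oxa-c. In HCT-FU-c, where it was low, it stood at 11.3, 12.1 and 179 CPM, and its difference there was 3.78, against 2.08 in HCT116 and 2.34 in HCT-Oxa-c. miR-625-3p, cut from an intron of FUT8, had differences of 2.14, 2.09 and 2.05 in HCT116, HCT-FU-c and HCT-Oxa-c. miR-375-3p, an epithelial and endocrine miRNA, rose by 1.48 ± 0.14, from 256 to 357 CPM to 684 to 1004 CPM. miR-143-3p, typical of smooth muscle and fibroblasts, rose by 1.83 ± 0.21, from 60.5 to 196 CPM to 312 to 561 CPM. It was also the named miRNA with the widest gap between replicates 2 and 1, 0.65.

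Among the decreases, miR-374a-5p, from the first intron of the noncoding FTX transcript on the X chromosome (chrX:74287286-74287357, minus strand), was the strongest. It stood at 3436, 3611 and 845 CPM in HCT116, at 3364, 3732 and 609 CPM in HCT-FU-c and at 3807, 3350 and 789 CPM in HCT-Oxa-c. The 6 higher values lay within 3350 and 3807 CPM and the 3 lower ones within 609 and 845 CPM, a difference of -2.26 ± 0.15. miR-335-5p, from an intron of the imprinted MEST gene (chr7:130496111-130496204, plus strand), fell by 2.02 ± 0.18, from 429 to 965 CPM to 129 to 192 CPM. miR-425-5p, from an intron of DALRD3, fell by 1.78 ± 0.16, from 2980 to 5741 CPM to 853 to 1540 CPM.

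miR-24-3p, which is made from 2 hairpins, one in the miR-23b cluster on chromosome 9 and one in the miR-23a cluster on chromosome 19, was the most abundant of the decreases. Its levels were 14942, 17461 and 4512 CPM in HCT116, 11783, 18513 and 4074 CPM for HCT-FU-c and 9422, 9499 and 4274 CPM for HCT-Oxa-c. The difference was -1.62 ± 0.18, and the replicate 3 values of the 3 lines lay within 4074 and 4512 CPM. Of the 10 compared members of these clusters, 3 were called higher and 3 lower. All 3 that fell were strands of miR-24 hairpins, with miR-24-1-5p at -1.98 ± 0.77 and miR-24-2-5p at -1.39 ± 0.20. miR-23a-3p had a difference of 0.11 ± 0.14, miR-23b-3p rose by 0.44 ± 0.15 and miR-27b-5p by 1.65 ± 0.19. miR-29a-3p, a repressor of collagen and DNA methyltransferase genes, fell from 11152 to 13088 CPM to 4697 to 5850 CPM, by 1.19 ± 0.13 on the log2 scale.

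The remaining 6 of the 12 decreases were smaller or less abundant. miR-22-3p, cut from an exon of the noncoding MIR22HG transcript, fell by 1.70 ± 0.18 and miR-3613-5p by 1.66 ± 0.22. miR-141-3p, a member of the miR-200 family, fell by 1.26 ± 0.17, from 645 to 1102 CPM to 329 to 379 CPM, with no overlap. miR-100-3p, miR-30b-5p and miR-186-5p had differences of -1.21 ± 0.24, -1.21 ± 0.18 and -1.18 ± 0.15. Of these, miR-100-3p varied most between lines, and its partner strand miR-100-5p is among the most abundant miRNAs of the cells.

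Not all abundant miRNAs moved. miR-21-5p, the most abundant miRNA of these cells, stood at 536933, 577238 and 534463 CPM in HCT116, at 457770, 356530 and 508466 CPM in HCT-FU-c and at 528798, 514998 and 446715 CPM in HCT-Oxa-c. Its difference was 0.02 ± 0.14, with overlapping values. miR-7-5p (0.09 ± 0.13), miR-148b-3p (-0.01 ± 0.13), miR-340-5p (0.03 ± 0.13) and miR-221-3p (-0.05 ± 0.13) were likewise near 0 on this scale. miR-100-5p rose by 0.54 ± 0.15.

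Families moved as families only in part. The median was highest in the miR-10 and miR-196 family, where miR-196b-5p was the middle member. Other medians ran from 1.03 in the cluster of miR-221-3p to -0.73 in the family of miR-148a and miR-148b, beside 0.02 over all compared miRNAs. Several of these groups hold both arms of a hairpin, so their medians mix seeds. miR-148a-5p and miR-148b-5p stood at -2.01 ± 0.38 and -2.98 ± 0.44, with means of 23.9 and 22.4 CPM. The abundant miR-148a-3p and miR-148b-3p stood at -0.14 ± 0.13 and -0.01 ± 0.13. In the cluster of miR-221-3p, 3 of 4 members were called higher, but miR-221-3p itself stood at -0.05 ± 0.13. In the miR-181 family 5 of 8 members were called higher and none lower, with a median of 0.97. It included miR-181b-5p, which rose by 1.41 ± 0.14. In the miR-15/16 family, which restrains the cell cycle, 3 of 6 were called lower and none higher, with a median of -0.53, led by miR-424-5p at -1.86 ± 0.30. The miR-200 family, which keeps epithelial identity, had 1 of 8 higher and 2 lower and a median of -0.20. The miR-17-92 cluster had 4 of 10 higher and 2 lower, from -1.71 for miR-18a-3p to 1.81 for miR-92a-1-5p. The medians of the clusters of miR-23, miR-27 and miR-24, and of the groups of miR-29, of miR-26, and of miR-103a-3p with miR-107, lay between 0.03 and 0.13 and turned negative under total counts. All other medians of families and clusters kept their sign under the 3 other scalings, where the one for the cluster of miR-182 and miR-183 came down to 0.00061.

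By seed, 14 families had at least 3 compared members with a sequence. In 1, let-7, called members moved both ways, and in 6 at least 2 members were called and all of those moved one way. In 5, the miR-30 family among them, only 1 member was called, and in 2 none. The miR-30 family is counted here without miR-30b-5p and miR-30d-5p, which had no sequence. The first was called lower, at -1.21 ± 0.18, and the second higher, at 0.83 ± 0.12. Counted by name, let-7 was thus not the only family to move both ways. The spread within a family could still be wide. The seed shared by miR-301a-3p, miR-454-3p, miR-130b-3p and miR-301b-3p covered differences of 2.17 ± 0.22, 1.37 ± 0.15, 0.42 ± 0.17 and -0.68 ± 0.48. The sequences of 3 of them are shown.
miR-301a-3p: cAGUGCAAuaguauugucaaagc
miR-301b-3p: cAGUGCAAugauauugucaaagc
miR-454-3p: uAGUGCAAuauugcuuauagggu

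The arms of one hairpin did not move together. In 83 hairpins both arms could be compared, and Pearson's r between the differences of the 5p and 3p arms was -0.04. The arms differed by a median of 0.95 on the log2 scale. In 37 hairpins the arms differed by at least 1 and in 14 by at least 2. In 14 hairpins one arm was called higher and the other lower, against 8 with both arms higher and 2 with both lower. Over all compared miRNAs 28.9% were called higher and 21.8% lower, so nothing is read from the counts of called arms. The order of the arms' differences was the same in all 3 lines in 58 of the 83 hairpins. Between replicates 2 and 1 the arms parted by a median of only 0.25. The more abundant arm had the higher difference, with sign counted, in 47 of 83. Where both arms had a mean of at least 100 CPM, in 23 hairpins, r was -0.32 and the arms again differed by a median of 0.95, in the same order in all 3 lines in 20.

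The hairpin of miR-374a gave the widest split. While its 5p arm fell, miR-374a-3p rose by 0.85 ± 0.14, from 446 and 400 to 908 CPM in HCT116, from 360 and 275 to 567 CPM in HCT-FU-c and from 637 and 552 to 907 CPM in HCT-Oxa-c. In the first line the 5p arm was thus more abundant than the 3p arm in replicates 1 and 2 and about level with it in replicate 3. The hairpin of miR-28, in an intron of LPP (chr3:188688781-188688866, plus strand), also split. miR-28-5p stood at 592, 518 and 263 CPM in HCT116, and miR-28-3p at 448, 402 and 1687 CPM. In HCT-FU-c the values were 402, 544 and 205 CPM for the 5p arm and 483, 386 and 1690 CPM for the 3p arm. In HCT-Oxa-c they were 383, 340 and 257 CPM for the 5p arm and 483, 427 and 1634 CPM for the 3p arm. The 2 arms were near each other in replicates 1 and 2, and the 3p arm was far above in each replicate 3.

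In the same direction, miR-30e-5p fell by 0.59 ± 0.14 while miR-30e-3p rose by 2.01 ± 0.13, and miR-151a-5p fell by 0.84 ± 0.14 while miR-151a-3p rose by 1.44 ± 0.14. miR-425-5p fell while miR-425-3p rose by 1.12 ± 0.22. In the opposite direction, miR-18a had 1.12 ± 0.14 for the 5p arm and -1.71 ± 0.31 for the 3p arm. miR-93 had 1.03 ± 0.13 and -1.69 ± 0.37, miR-98 had 1.13 ± 0.16 and -1.65 ± 0.38, and miR-29a had 1.28 ± 0.37 and -1.19 ± 0.13. The minor arms of these 4 hairpins had means of only 13.6 to 42.3 CPM. The arms of miR-30e and miR-93 are shown, since each pair came from one duplex.
miR-30e-5p: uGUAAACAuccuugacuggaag
miR-30e-3p: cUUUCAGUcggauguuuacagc
miR-93-5p: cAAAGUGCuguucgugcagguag
miR-93-3p: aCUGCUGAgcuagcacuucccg

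Pairs of neighbouring hairpins and pairs with one seed were compared in the same way. The median gap between the differences was 0.94 for 230 pairs of miRNAs whose hairpins lie within 10 kb on one strand and have other seeds, 0.95 for the 83 pairs of arms and 1.04 for all 67161 pairs. For 117 pairs with a shared seed it was 0.60. With both miRNAs at a mean of at least 100 CPM the gaps were 0.65 for neighbours, 0.95 for arms, 0.56 for a shared seed and 0.88 for all pairs. miRNAs with a shared seed also share much of their other letters. Pairs share members, so these gaps are descriptions.

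The letters of the mature miRNA moved with the difference. RefSeq held a sequence for 328 of the 367 miRNAs. Spearman's rho between the replicate 3 difference and the share of G was 0.35, that with the share of C was -0.36, and that with G and C together was -0.05. With length it was -0.001. When these miRNAs were divided into 4 bins of like size by G content minus C content, the median difference was -0.53 in the lowest bin, -0.06 and 0.13 in the middle bins and 0.64 in the highest. In the lowest bin 10 of 83 were called higher and 28 lower, and in the highest 39 of 78 higher and 5 lower. The medians of the lowest bin were -0.32, -0.64 and -0.37 in HCT116, HCT-FU-c and HCT-Oxa-c, and those of the highest 0.87, 0.53 and 0.68.

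The relation with G minus C was weaker in abundant miRNAs. Its rho was 0.42 over 328 miRNAs and 0.24 over the 130 with at least 100 CPM, and it was -0.08 for the difference between replicates 2 and 1. A sequence was held for 32 of the 36 miRNAs at least 2-fold above in all lines and for 19 of the 26 below. The median of these 32 was 27.9% G and 17.4% C, and that of these 19 was 21.7% G and 22.7% C. Over all miRNAs with a sequence it was 22.7% G and 22.2% C. miR-625-3p, with 9.09% G and 36.4% C, was higher in replicate 3 against this trend. The miRNAs of one family share their letters, and levels of low miRNAs are less precise, and the part of base composition in the difference was not tested.

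miRNAs of blood and liver appeared in the replicate 3 libraries of all 3 lines. miR-451a, which red blood cells make in abundance, had 2, 0 and 86 counts in HCT116 replicates 1, 2 and 3, 0, 0 and 70 for HCT-FU-c and 1, 2 and 246 for HCT-Oxa-c. Its level in replicate 3 was 165 times that of the other HCT116 libraries (exact 95% interval 44.3 to 1385, counting error only), 349 times in HCT-Oxa-c (118 to 1702) and, against a floor of 3 counts over both other libraries, at least 89.7-fold higher in HCT-FU-c. miR-486-5p, also of red blood cells, had 19, 25 and 202 counts in HCT116, 41, 55 and 167 for HCT-FU-c and 16, 42 and 302 for HCT-Oxa-c. It was thus present in every library and higher in each replicate 3.

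miR-122-5p, the leading miRNA of hepatocytes, had 2, 0 and 45 counts in HCT116, 0, 0 and 20 for HCT-FU-c and 7, 3 and 45 for HCT-Oxa-c. The ratio was 86.4 in HCT116 (22.6 to 735) and 19.1 in HCT-Oxa-c (9.51 to 42.6), and in HCT-FU-c the level was at least 25.6-fold higher.
miR-122-5p: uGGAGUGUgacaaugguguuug

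**Figure D3:**
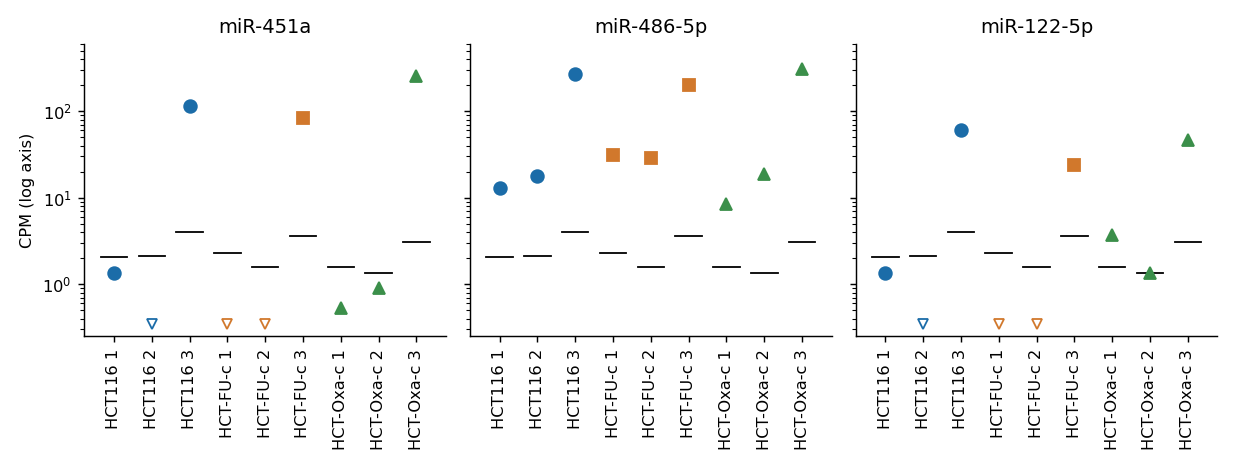
Level of miR-451a, miR-486-5p and miR-122-5p in each of the 9 libraries, in CPM on a log axis. Black lines mark the level of 3 counts in that library, and open triangles at the base mark libraries with 0 counts. In each panel the 3 replicate 3 libraries stand above the other 6.

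The other markers of blood cells had at most 13 counts in any library. miR-144-3p, made from the same transcript as miR-451a, had 1, 2 and 4 counts in the replicate 3 libraries and 0 in all others. The leukocyte miRNAs miR-142-3p, miR-150-5p and miR-223-3p had at most 1, 2 and 13 counts in replicate 3 and at most 7, 2 and 4 in the others. In level miR-223-3p stood at 3.58 to 13.3 CPM in replicate 3 and 0 to 2.10 CPM in the others. Its 3 counts in HCT-FU-c replicate 3 were at the floor, beside 1 and 4 counts in the other HCT-FU-c libraries. miR-142-3p was not higher in replicate 3. miR-142-5p had 2, 0 and 1 counts in the replicate 3 libraries and 0 to 10 in the others. With so few counts, nothing is read from these members. The 7 blood markers together stood at 290 to 583 CPM in replicate 3 and 10.5 to 42.3 CPM in the others, of which miR-451a and miR-486-5p made up most. The liver marker stood at 23.8 to 60.1 CPM and 0 to 3.67 CPM. Of the 6 mesenchymal markers 4 were compared, and 1, miR-143-3p, was called higher and 3 lower. The neural markers stood at 3957 to 4603 CPM in replicate 3 and 3560 to 5215 CPM in the others, and the muscle and pluripotent markers had at most 6 and 3 counts in any library. The part of such RNA in the other differences was not tested.

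The counts of some miRNAs were lost in replicate 3. In all, 13 miRNAs had at most 3 counts in each replicate 3 library and more than 3 in each of the other 6. miR-328-3p had 10, 22 and 1 counts in HCT116, 15, 32 and 1 for HCT-FU-c and 19, 61 and 0 for HCT-Oxa-c. miR-346 had 7 to 19 counts in the 6 libraries and 0 in each replicate 3. The replicate 3 libraries were shallower, which lowers such counts. Only miR-451a and miR-4433b-5p had the reverse pattern, the latter with 7 to 14 counts in replicate 3 and at most 1 elsewhere.

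Replicate 2 was then tested against replicate 1. edgeR called 0 of 367 miRNAs (0%) at an adjusted p of 0.05, with 29 at an unadjusted p below 0.05 and a smallest adjusted p of 0.471, and DESeq2 also called 0. Among the 24 named rises and decreases, replicate 2 minus replicate 1 ran from -0.53 for miR-10a-5p to 0.65 for miR-143-3p, beside a median absolute value of 0.19 over all miRNAs. Without HCT116 replicate 1, miR-143-3p was called (0.98, adjusted p of 0.0302 by edgeR).

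Next, the replicate 3 difference was tested for unequal size between lines. For HCT-FU-c minus HCT116, HCT-Oxa-c minus HCT116 and HCT-Oxa-c minus HCT-FU-c, edgeR called 0 of 367 (0%) each time, with 22, 19 and 19 at an unadjusted p below 0.05. DESeq2 called 0, 0 and 1. The 1 was miR-30a-5p, one of the growth-restraining miR-30 family. It stood at 1556, 1566 and 1283 CPM in HCT116, at 1190, 662 and 267 CPM in HCT-FU-c and at 40.4, 21.5 and 52.4 CPM in HCT-Oxa-c. Its replicate 3 difference in HCT-Oxa-c was 2.56 ± 0.60 above that in HCT-FU-c. Each line had a single replicate 3 library, so the spread in this test came from replicates 1 and 2 alone, and the miR-30a-5p value rests on 1 library per line. The replicate 3 libraries had also been grouped because they differed together. The 0 calls therefore do not show that the differences were equal in the lines.

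Last, the lines were compared, each line having 1 replicate 3 library. With the line alone in the model, edgeR called 0 of 367 miRNAs (0%) between HCT-FU-c and HCT116, with 15 at an unadjusted p below 0.05 and 4 calls by DESeq2. Between HCT-Oxa-c and HCT116 it called 9 (2.45%), against 23 by DESeq2, and 4 or 5 without HCT116 replicate 1 or 2 or HCT-Oxa-c replicate 2 or 3. When replicate 3 had a term of its own, the calls were 15 (4.09%) and 54 (14.7%). That term was added after these same counts had shown the replicate 3 libraries apart. The calls and adjusted p-values with the term, here and below, are therefore descriptions, and the p-values can be too small.

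None of the 36 miRNAs at least 2-fold above or the 26 at least 2-fold below in replicate 3 of every line was among the calls of the model with the line alone. These 62 were chosen for a wide spread within each line, which that model counts as error, so nothing is read from this. With the replicate 3 term, 3 of the 36 and 1 of the 26 were called between HCT-FU-c and HCT116, and 9 and 6 between HCT-Oxa-c and HCT116. miR-27b-5p was 1 of the 36. It stood at 22.4, 15 and 65.5 CPM in HCT116 and at 151, 163 and 447 CPM in HCT-Oxa-c, so every HCT-Oxa-c library lay above every HCT116 library. The log2 difference between the lines was 2.91 with an adjusted p of 0.0857 by edgeR with the line alone, and 2.95 ± 0.22 with an adjusted p of 2.55e-09 with the replicate 3 term. miR-203b-3p was lower in HCT-FU-c than in HCT116 at each replicate number, by 2.54 ± 0.29 on the log2 scale with the term. Its adjusted p by edgeR was 0.968 without the term and 1.14e-05 with it.

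The 9 miRNAs called with the line alone had replicate 3 differences of -0.52 (miR-30a-5p) to 1.01 (miR-30a-3p). That model counts the replicate 3 difference as error, so nothing is read from this range. The largest rises in HCT-Oxa-c were those of miR-205-5p, miR-487b-3p and miR-23b-3p, and the largest decreases those of miR-30a-5p, miR-30a-3p and miR-629-5p. Of these, miR-205-5p and miR-487b-3p were low, with means of 10.8 and 14.7 CPM over the 9 libraries. miR-23b-3p, for example, stood at 595, 702 and 683 CPM in HCT116 and at 2664, 2881 and 5023 CPM in HCT-Oxa-c, a difference of 2.42 with an adjusted p of 0.00193 by edgeR. Its replicate 3 difference was 0.44 ± 0.15. miR-30a-3p stood at 34.0, 30.0 and 96.2 CPM in HCT116 and at 1.57, 1.79 and 2.05 CPM in HCT-Oxa-c. It differed by -4.83 between these lines and by 1.01 ± 0.31 for replicate 3. A level of 3 counts was 1.57, 1.34 and 3.08 CPM in the HCT-Oxa-c libraries, so its values there lay near the floor. The size of its difference between lines is therefore uncertain.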

How the data were processed

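The authors prepared libraries with the NEXTflex Small RNA-Seq v3 kit and sequenced them on a MiSeq, with only part of the libraries pooled in each run. The submitters' processing notes name CASAVA 1.8, Bowtie 1.1.2, DESeq2 and GRCh38.p7. The deposited table held raw counts per mature miRNA, which were used, and signal values that the authors made from counts with 1 factor per library, which were not tested. The labels name no batch, date or run, so culture, extraction, library and run cannot be told apart. The labels give RPMI medium and the methods DMEM.

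The members and lists were chosen with earlier results of these data known. edgeR 4.0.16 (R 4.3.3) quasi-likelihood fits used TMM and filterByExpr (at least 10 counts) on all 9 libraries, with Benjamini-Hochberg adjustment. Each fit was tested on simulated counts. Differences within a line were taken on log2 CPM with a prior count of 2. DESeq2 1.42.0 was an alternative. Named miRNAs were the 12 largest rises and 12 largest decreases with at least 100 CPM and replicate 3 outside both other libraries in every line, the 5 highest, the 5 steadiest with at least 1000 CPM, and up to 3 calls a direction in each test. Others named were chosen after their values were seen. Hairpin positions came from GENCODE 29 (GRCh38). Intervals and floors of 3 counts cover counting error only. Deviations of same-numbered libraries from their line means (Pearson's r of 0.411 to 0.764) carry the replicate 3 difference, so they do not show pairing of replicates 1 and 2. The p-values measure the spread between these cultures of 1 line each.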

Additional observations from a re-analysis of the deposited data

Results flagged for a closer look

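In 6 of the named miRNAs the replicate 3 library lay above both other libraries in one line and below both in another, and none of these differences between lines was called by edgeR with all libraries and the low-count filter. miR-30a-5p was called in other fits of the 2 sublines, with a replicate block, with no filter and without HCT-FU-c replicate 2. Each of these rests on 1 replicate 3 library per line. miR-30a-5p had a replicate 3 difference of 0.80 in HCT-Oxa-c, -0.28 in HCT116 and -1.73 in HCT-FU-c. miR-487b-3p had 0.90 in HCT-FU-c, 0.87 in HCT-Oxa-c and -0.52 in HCT116, at levels of 2.67 to 48.3 CPM. miR-21-5p had 0.33 in HCT-FU-c, -0.06 in HCT116 and -0.22 in HCT-Oxa-c. miR-221-3p had 0.18 in HCT-FU-c, -0.17 in HCT116 and -0.15 in HCT-Oxa-c. let-7i-5p had 0.12 in HCT116, 0.16 in HCT-FU-c and -0.27 in HCT-Oxa-c. miR-340-5p had 0.20 in HCT116, -0.01 in HCT-FU-c and -0.09 in HCT-Oxa-c. The smallest adjusted p of the 3 contrasts was 0.393 for miR-30a-5p and 0.745 or above for the other 5.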

How the results depend on the processing

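The count of 186 of 367 miRNAs that differed in replicate 3 stayed between 139 and 188 under other scalings, filters, thinning, DESeq2 and the replicate block. The 139 were out of 231 miRNAs with at least 10 counts in every library. Without one library it was between 157 and 189. Counted only at 100 CPM or more, chosen after seeing the data, it was 96 of 145, so the number compared fell along with the count. The 62 of 367 miRNAs shifted at least 2-fold in all lines became 123 at 1.5-fold, 12 at 4-fold and 36 with at least 10 counts in every library. They became 29 of the 145 at 100 CPM or more, and 62 to 72 without one library of replicates 1 or 2. The counts so far describe the contrast by which the libraries were divided, so they are no test of it. Unequal differences between lines stayed at 0 calls except for miR-30a-5p with DESeq2, the replicate block (1) and no filter (1), and miR-497-5p with no filter (1). Without one library the 3 contrasts gave 0 to 3, 0 to 0 and 0 to 2 calls, the 3 and 2 both without HCT-FU-c replicate 2 (let-7f-5p, miR-10a-5p and miR-30a-5p). Replicate 2 against replicate 1 gave 0 to 1, miR-143-3p without HCT116 replicate 1 and miR-183-5p without HCT-Oxa-c replicate 2. HCT-FU-c against HCT116 gave 4 calls with DESeq2, 1 with at least 10 counts in every library, 20 with the replicate block and 15 with replicate 3 as a factor, and 0 to 0 without one library. HCT-Oxa-c against HCT116 gave 23, 4, 54 and 54, and 4 to 12 without one library, with 4 without HCT116 replicate 2 and 5 without HCT116 replicate 1, HCT-Oxa-c replicate 2 or replicate 3. The replicate block changed no other call count by over 1.5 times. Replicate numbers were not shown to pair the libraries: the difference between replicates 2 and 1 correlated between lines by r of 0.19, 0.13 and -0.08. Of 757 alternative values for 38 named miRNAs none reversed a called direction and 665 stayed within the spread between lines. At 100 CPM or more, the correlation of arms was -0.32 and those with G and C 0.27 and -0.14. The cause of these changes was not tested.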
